A study of Homo sapiens with 2 samples.

Results

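The 10 genes described here encode proteins of the intestinal absorptive cell, the enterocyte, and of its brush border. They were chosen by name: VIL1, MYO1A, ANPEP, HEPH, CA1, LGALS4, ATP1B1, FABP1, SI and ALPI. Every feature (array spot) annotated to 1 of these symbols was taken, which gave 15 features of 45015 on the array. Expression was measured in COLO320, an established human colorectal cancer line with neuroendocrine features. One group of cells was transfected with 100 nM of CDX2 siRNA 6, a second with 100 nM of CDX2 siRNA 8, and the control cells with a non-targeting siRNA. Medium was replaced the next morning and total RNA was taken 24 h after that. Each of the 2 two-colour Agilent arrays held RNA of CDX2 siRNA cells in Cy5 and time-matched control RNA in Cy3, so that every value is a ratio of CDX2 siRNA over control. The siRNAs are the 2 replicates, the knockdown is transient and in 1 cell line, and no array had its dyes swapped.

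The brush border is the carpet of microvilli on the lumenal face of an enterocyte. Bundles of actin hold each microvillus upright, short-tailed myosins tie the bundle to the membrane, and digestive enzymes stand on the outer surface. Pumps and oxidases of the basolateral membrane pass sodium and iron on to the blood. CDX2 is a homeobox factor that directs intestinal identity, and the sucrase-isomaltase promoter is a textbook site of its action. On these arrays CDX2 RNA was at 37.0% of control with siRNA 6 and 37.7% with siRNA 8 (limma, adjusted p = 0.00164).

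The promoters of these genes were searched for TTTAT, the core of the site that CDX factors bind, in either orientation. RefSeq sequences (GRCh38.p14, 250 bases before to 50 after a start site) were matched for 8 of the 10 genes, as 12 promoters. CA1 and VIL1 were not among them. TTTAT or its reverse complement lay in 6 of the 12 promoters, while 34.9% of all 35116 promoters of that length in the table held it. Those 6 belonged to 4 genes, FABP1, SI, MYO1A and HEPH. A match is a description of the letters, and binding was not measured. Shown here are the promoters of the genes that changed past the threshold, with MYO1A, which lay nearest to it, and SI, which holds the most matches. Capitals mark TTTAT or its reverse complement ATAAA. The sequences are chr15:89806579-89806878 (minus strand) for ANPEP, chr1:169106440-169106739 (plus strand) for ATP1B1, chrX:66162421-66162720 (plus strand) for HEPH, chr12:57051149-57051448 (minus strand) for MYO1A and chr3:165078447-165078746 (minus strand) for SI.
ANPEP: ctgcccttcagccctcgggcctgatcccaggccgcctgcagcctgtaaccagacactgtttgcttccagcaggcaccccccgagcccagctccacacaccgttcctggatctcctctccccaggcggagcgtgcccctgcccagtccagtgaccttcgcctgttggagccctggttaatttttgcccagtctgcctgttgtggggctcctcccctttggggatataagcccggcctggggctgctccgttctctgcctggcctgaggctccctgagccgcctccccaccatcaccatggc
ATP1B1: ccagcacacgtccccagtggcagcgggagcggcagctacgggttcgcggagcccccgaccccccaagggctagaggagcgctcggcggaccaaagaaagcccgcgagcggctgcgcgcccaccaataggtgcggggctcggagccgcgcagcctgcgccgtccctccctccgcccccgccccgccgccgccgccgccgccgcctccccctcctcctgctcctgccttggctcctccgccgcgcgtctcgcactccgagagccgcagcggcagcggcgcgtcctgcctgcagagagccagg
HEPH: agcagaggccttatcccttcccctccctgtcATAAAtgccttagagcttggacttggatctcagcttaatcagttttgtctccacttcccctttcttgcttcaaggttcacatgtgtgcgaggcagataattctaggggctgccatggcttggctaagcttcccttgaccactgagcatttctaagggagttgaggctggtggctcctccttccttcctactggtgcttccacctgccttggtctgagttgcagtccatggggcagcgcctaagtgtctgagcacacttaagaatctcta
MYO1A: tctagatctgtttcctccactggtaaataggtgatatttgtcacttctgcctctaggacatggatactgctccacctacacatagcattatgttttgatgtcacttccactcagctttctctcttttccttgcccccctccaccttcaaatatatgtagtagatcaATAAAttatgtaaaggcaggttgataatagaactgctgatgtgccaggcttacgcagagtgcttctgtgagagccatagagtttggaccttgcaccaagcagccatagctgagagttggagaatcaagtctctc
SI: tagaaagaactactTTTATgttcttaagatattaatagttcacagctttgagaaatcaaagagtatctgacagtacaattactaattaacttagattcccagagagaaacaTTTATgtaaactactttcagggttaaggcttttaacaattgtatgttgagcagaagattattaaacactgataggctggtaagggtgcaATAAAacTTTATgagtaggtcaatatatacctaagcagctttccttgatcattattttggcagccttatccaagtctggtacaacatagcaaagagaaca

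The SI promoter held 4 matches, and the pair closest to the start site ran from -50 to -46 and from -43 to -39, in opposite orientations. FABP1 held 3, at -134, -88 and -30. The match at -134 shares letters with a GATAA match on the other strand, and the one at -30 lies within TATAAA. MYO1A held 1 match in each of 2 promoters, and the one in the promoter not shown also lies within TATAAA. HEPH held 1 in each of 2 of its 3 promoters. ANPEP held none in either of its 2 promoters, and ATP1B1, ALPI and LGALS4 held none in 1 promoter each. The other letters searched were TTTAC, present in 28.1% of all promoters, GATAA in 22.7%, TATAAA in 11.5% and GTTAAT in 6.88%. GTTAAT lay in ANPEP at -77, FABP1 at -108 and SI at -166. TTTAC lay in ALPI, SI, MYO1A and HEPH, and GATAA in FABP1, SI, MYO1A, LGALS4 and HEPH.

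Of the 10 genes, 6 had a ratio other than exactly 0 on both arrays and could be tested. A value of exactly 0 was taken to mean that no ratio was measured, although the sources do not say so. ANPEP rose, HEPH and ATP1B1 fell, and MYO1A, CA1 and LGALS4 did not pass the threshold of an adjusted p of 0.05 (limma, Benjamini-Hochberg over 12842 genes). Of all genes tested, 40.7% passed, 12.1% higher and 28.6% lower, so 3 of 6 is near the share of the array as a whole. At least 1.5-fold on both arrays were the same 3 genes, 1 higher and 2 lower, against 7.8% higher and 18.4% lower among all genes, or 26.2% in either direction. The median log2 ratio was -0.43 over the 6 genes and -0.13 over all genes. The spread of the control RNA itself was not measured. In RNA of whole cultures, fewer cells with a transcript and less of it per cell cannot be told apart.

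**Figure D1:**
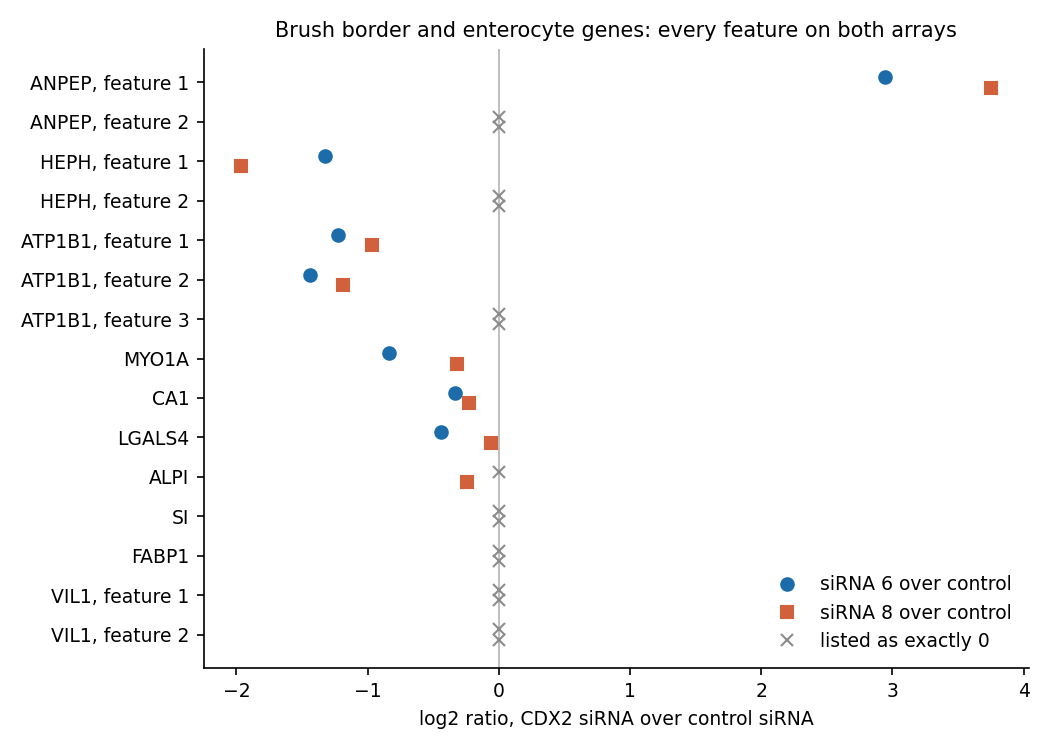
Log2 ratio of CDX2 siRNA over control siRNA (x axis) for each of the 15 features of the 10 genes (rows), with siRNA 6 as circles and siRNA 8 as squares. Grey crosses are values listed as exactly 0. The measured feature of ANPEP lies between 2.94 and 3.75, while the other 6 measured features lie below 0 on both arrays.

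Of the enzymes of the microvillus surface, ANPEP had a ratio on both arrays, ALPI on 1 and SI on none. ANPEP, aminopeptidase N, trims amino acids from peptides at the lumen. Its feature for NM_001150 had a log2 ratio of 2.94 with siRNA 6 and 3.75 with siRNA 8. Both arrays lay far above 0, at 767% and 1349% of control. The mean of 3.35 ± 0.58 (SD, n = 2) is a 10.2-fold rise, with a 95% interval of 2.72 to 3.98 that, like the others given here, is not adjusted for the number of genes (limma, adjusted p = 0.00192). It stood at percentile 97.7 of all genes tested. The other feature of ANPEP, annotated to AF290544, was at exactly 0 on both arrays, so that the rise rests on 1 feature. Measured features of a gene can disagree, as in HFE (4.35 and -0.20), FABP3 (6.06 and -1.16) and CA5B (1.99 and -0.42), described below. The 10 features of HMOX1, by contrast, lay between 0.48 and 0.58. Whether a second measured feature would bear out the rise of ANPEP is not known. ALPI, the intestinal alkaline phosphatase, had 1 feature, which was at exactly 0 with siRNA 6 and at -0.24 with siRNA 8, or 84.7% of control. It was not tested. ALPI is close in sequence to the placental phosphatase genes ALPP and ALPG, and whether the feature takes up their transcripts is not known from the files. The feature of SI, sucrase-isomaltase, which splits disaccharides, was at exactly 0 on both arrays.

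Iron and sodium transport at the basolateral membrane was represented by HEPH and ATP1B1. HEPH, hephaestin, oxidises iron as it leaves the enterocyte. It had log2 ratios of -1.33 with siRNA 6 and -1.96 with siRNA 8, or 39.8% and 25.7% of control. Both arrays lay below 0, and the lower value came from siRNA 8. HEPH fell by 1.64 ± 0.45 on the log2 scale (SD, n = 2), or 3.13-fold (95% interval -2.16 to -1.13; limma, adjusted p = 0.00559). Its other feature, annotated to the same RefSeq mRNA, was at exactly 0 on both arrays.

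ATP1B1 encodes the beta-1 subunit that brings the sodium pump to the membrane, and it was the only 1 of the 10 genes measured by more than 1 feature. Its first feature read -1.22 with siRNA 6 and -0.97 with siRNA 8, and its second read -1.44 and -1.19 (log2). The 2 features, both of NM_001677, differed by 0.22 on each array, and all 4 values lay below 0. On the gene level ATP1B1 stood at 39.7% of control with siRNA 6 and 47.3% with siRNA 8. Its mean of -1.21 ± 0.18 (SD, n = 2) is a 2.31-fold fall (95% interval -1.51 to -0.90; limma, adjusted p = 0.00338). The third feature, annotated to the sequence tag BE703462, was at exactly 0 on both arrays.

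Each of these 3 genes has a feature listed at 0, and their calls depend on how exact zeros are read. With 0 kept as a ratio, the mean log2 ratio was 1.67 for ANPEP, -0.82 for HEPH and -0.80 for ATP1B1, and the limma adjusted p was 0.144, 0.189 and 0.133. Under the other alternatives with a test the adjusted p was at most 0.00345 for ANPEP, 0.0172 for HEPH and 0.00583 for ATP1B1. No gene of the array passed in that fit, CDX2 included, whose mean was the same with zeros kept, while ANPEP and ATP1B1 had an unadjusted p under 0.05 among the 10 genes.

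The actin core was represented by MYO1A and VIL1. MYO1A, the brush border myosin, had 1 feature with log2 ratios of -0.84 with siRNA 6 and -0.32 with siRNA 8. Both arrays were below 0, at 55.9% and 80.0% of control, and they differed by 0.52, a gap wider than that of 91.3% of genes. The mean was -0.58 ± 0.37 (SD, n = 2), with an interval of -1.02 to -0.14 and a limma adjusted p of 0.0531, which ran up to 0.361 under the alternatives. VIL1, villin, which bundles and severs actin, had 2 features of the same RefSeq mRNA, and both were at exactly 0 on both arrays.

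Of the cytosolic proteins, CA1 and LGALS4 were measured and FABP1 was not. CA1 is the carbonic anhydrase of colonocytes and red cells. It read -0.33 with siRNA 6 and -0.23 with siRNA 8 (log2), a mean of -0.28 ± 0.07 (SD, n = 2; interval -0.53 to -0.03; limma, adjusted p = 0.0774). LGALS4, a galectin that helps sort glycoproteins to the apical membrane, read -0.44 with siRNA 6 and -0.06 with siRNA 8. Its mean was -0.25 ± 0.27 (SD, n = 2), with an interval of -0.62 to 0.12 (limma, adjusted p = 0.207). FABP1, the liver fatty acid binding protein that enterocytes also use, had 1 feature, at exactly 0 on both arrays. In 172 transcripts with 10 or more measured features, repeat features had a median SD of 0.0739 (siRNA 6) and 0.0791 (siRNA 8) on the log2 scale. That is a spread between spots of 1 array. The spread between cultures was not measured, and CA1 and LGALS4 had 1 feature each.

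Relative to the median of all genes on each array, CA1 stood at -0.15 and LGALS4 at -0.12 (log2), and LGALS4 with siRNA 8 turned to 0.06. ANPEP at 3.47, HEPH at -1.52 and ATP1B1 at -1.08 passed the threshold on that scale too, and MYO1A stood at -0.45. Centring changed the split of all calls from 70.2% lower to 58.0% lower.

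The size of the ratio differed between the siRNAs. In 5 of the 6 genes the log2 ratio was lower with siRNA 6 than with siRNA 8, and HEPH was the exception. For ANPEP that was a smaller rise, and for MYO1A, CA1, LGALS4 and ATP1B1 a value further below 0. The median of all genes was also lower with siRNA 6, at -0.136 against -0.119 with siRNA 8. The share of all genes with that order was not counted. The gap between the siRNAs was 0.81 for ANPEP and 0.63 for HEPH, wider than in 96.7% and 94.4% of genes. It was 0.39 for LGALS4, 0.25 for ATP1B1 and 0.10 for CA1. The difference between siRNAs was not tested, since each had 1 array.

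**Figure D2:**
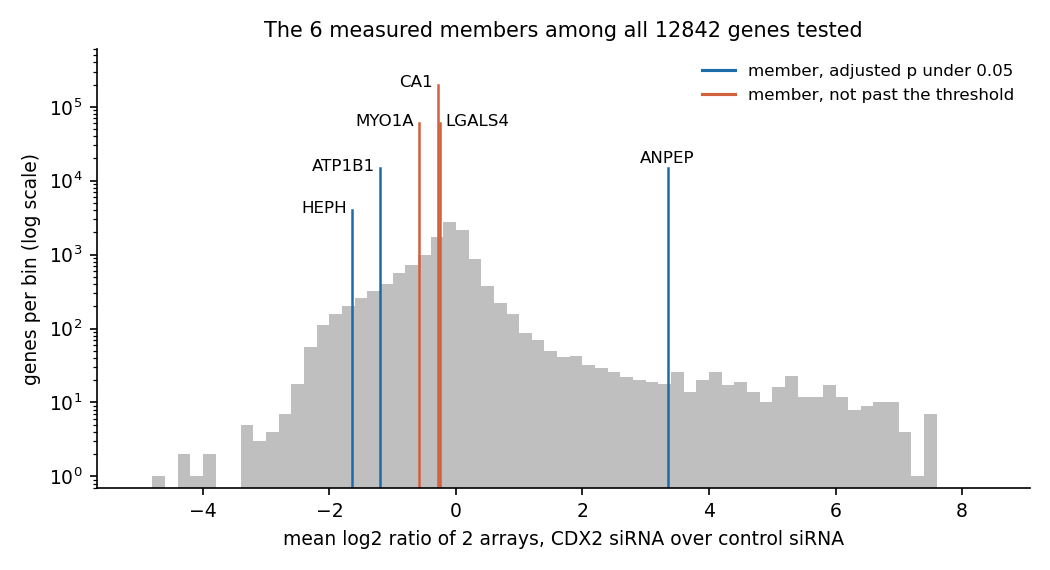
Number of genes per bin (y axis, log scale) by mean log2 ratio of the 2 arrays (x axis) for the 12842 genes tested, with a vertical line, whose height carries no value, for each of the 6 measured genes. ANPEP lies at 3.35 in the long right tail, and the other 5 lie between -1.64 and -0.25.

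The share of features with a ratio was counted next, since 4 of the 10 genes could not be tested. Of the 15 features, 7 had a ratio on both arrays (46.7%), 7 were at exactly 0 on both and 1 had a ratio with siRNA 8 only. Of all 31332 features with 1 gene, 67.2% had a ratio on both arrays. Other digestive enzymes of the brush border were mostly listed at 0, as SI was. Only 2 of 24 features of the hydrolases on the array (8.33%) had a ratio on both arrays, and 12 of 16 genes were at 0 throughout, among them DPP4, LCT, MGAM and TMPRSS15. In the transporter list 25.7% of features had a ratio on both arrays, and in the list of surface colonocyte genes 22.2%. Features for microvillus structure had one in 56.1% of cases and those for iron handling in 81.0%. The files hold no intensities, so signal over background is unknown for every feature.

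**Figure D3:**
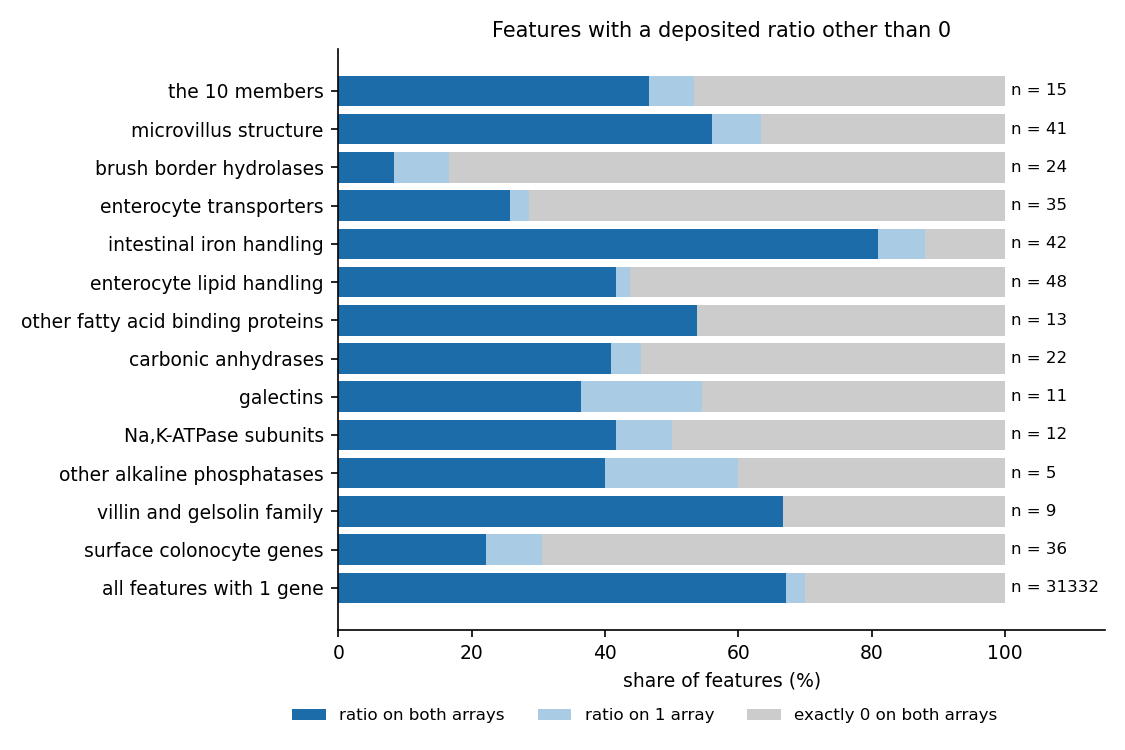
Share of features (x axis, %) with a ratio on both arrays, on 1 array, or at exactly 0 on both. Rows are the 10 genes, each list except the cell type markers, and all features with 1 gene, with the number of features at the right. The hydrolases have the lowest share with a ratio on both arrays, 8.33%.

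Other genes of microvillus structure moved both ways. Of 18 measured, 4 rose, 3 fell and 11 did not pass, with a median log2 ratio of 0.01, against 1556 higher and 3669 lower among the 12842 genes. CDHR5, a protocadherin that links the tips of microvilli, read 3.85 with siRNA 6 and 4.37 with siRNA 8, a 17.2-fold rise. MISP, an actin-bundling protein, was 13.4-fold higher, CALML4, a light chain of the tip-link complex, 2.20-fold higher and EPS8, an actin-capping protein of the tip, 1.85-fold higher. CDHR5, MISP, CALML4 and EPS8 each rested on 1 feature, and CDHR5 has a further feature at 0 as ANPEP does. BAIAP2L1 (1.71-fold), MYO1D (1.51-fold) and FSCN1 (1.54-fold) fell, although the 2 features of FSCN1 stood at -1.67 and 0.43. Of the villin and gelsolin family, the relatives of VIL1, 2 of 6 rose, GSN (1.63-fold) and CAPG (1.28-fold). SVIL (3.42-fold) and AVIL (2.60-fold) fell, and the median was -0.24.

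Of the 8 measured genes in the lists of hydrolases and transporters, 5 fell and 0 rose. On the array 28.6% of genes passed lower and 64.9% had a mean below 0. Other enzymes and transporters were counted elsewhere, among them ANPEP, ABCG8 and SLC26A2, which rose, and ABCG5, NPC1L1 and SLC11A2, which fell. MEP1B, a meprin subunit of the brush border, fell 1.47-fold, and of its list only PLB1 was measured besides, at 0.21 with siRNA 6 and -1.04 with siRNA 8. With each array centred on its median, MEP1B had a limma adjusted p of 0.0524. Of the 6 measured genes in the transporter list 0 rose and 4 fell, with a median of -1.01. They were ABCG2, a drug and urate exporter (3.61-fold), SLC6A19, the main neutral amino acid carrier of the brush border (3.01-fold), SLC1A1 (2.44-fold) and SLC3A1, a subunit of the cystine carrier (1.65-fold). The 2 features of SLC1A1 stood at -1.97 and -0.60. SLC6A19 works at the same surface as ANPEP, and the values of SLC6A19 were -1.49 with siRNA 6 and -1.69 with siRNA 8.

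Around HEPH in the iron pathway, 3 of 8 measured genes rose, 1 fell and 4 did not pass (median 0.26), against 12.1% higher and 28.6% lower among all genes. SLC11A2, the iron importer of the apical membrane, fell 1.57-fold, its 3 features lying between -0.89 and -0.47. SLC40A1, the exporter that HEPH works with, stood at 0.24 with siRNA 6 and 0.28 with siRNA 8, and TFRC, the transferrin receptor, stood at 0.21. Neither passed without centring, and both passed with it (limma, adjusted p = 0.0330 and 0.0480). HMOX1, heme oxygenase, rose 1.44-fold over 10 features and FTL, the ferritin light chain, 1.40-fold over 3. HFE was 4.22-fold higher, with its 2 measured features at 4.35 and -0.20, and it turned to -0.20 when the lower feature was used in place of the mean.

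Around FABP1 in lipid handling, 2 of 14 measured genes rose and 6 fell, with a median of -0.40. The shares over all genes were 12.1% higher and 28.6% lower. FABP2, the intestinal fatty acid binding protein, fell 1.42-fold, with log2 ratios of -0.61 with siRNA 6 and -0.40 with siRNA 8, and did not pass with each array centred (adjusted p = 0.0514). MTTP, which loads lipid onto apolipoprotein B, fell 2.32-fold, ABCG5 fell 2.06-fold and DGAT2 2.03-fold, with the 2 features of DGAT2 at -1.99 and -0.05. FABP6, the ileal bile acid binding protein, rose 1.49-fold and APOA4 (1.47-fold) and NPC1L1, the cholesterol importer (1.55-fold), fell. ABCG8, the partner of ABCG5 in sterol export, was 53.3-fold higher on 1 feature. The other binding proteins of this fold were measured for 3 genes, of which FABP3 (5.45-fold) and CRABP2 (1.33-fold) rose, but the 2 features of FABP3 stood at 6.06 and -1.16, and by the lower one FABP3 fell.

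The relatives of CA1, LGALS4, ATP1B1 and ALPI also differed among themselves. Their counts stand beside 12.1% of all genes higher and 28.6% lower. Of 8 other carbonic anhydrases 2 rose and 5 fell, with a median of -0.60. CA12 (7.60-fold), CA2, the main cytosolic form beside CA1 (4.76-fold), and CA5A (2.92-fold) fell, as did CA13 (1.65-fold) and CA8 (1.38-fold), CA8 not passing with each array centred (limma, adjusted p = 0.0793). CA14 rose 1.59-fold, at 0.83 with siRNA 6 and 0.50 with siRNA 8, and CA5B rose 1.72-fold with features at 1.99 and -0.42, and by the lower one it fell. CA2 read -2.17 with siRNA 6 and -2.33 with siRNA 8, where CA1 read -0.33 and -0.23. Of 3 galectins LGALS1 (1.47-fold) and LGALS8 (1.29-fold) rose and LGALS7 fell 3.11-fold. By the lower of its 2 measured features LGALS8 did not pass (limma, adjusted p = 0.251). Among sodium pump subunits ATP1B2 fell 2.89-fold, at -2.04 with siRNA 6 and -1.02 with siRNA 8, FXYD6 fell 2.37-fold and FXYD2 rose 3.61-fold, while ATP1B3 stood at 0.17 and -0.02. The median of the 5 measured subunits was -0.45. No alpha subunit had a feature with this annotation. Of the phosphatases, ALPP stood at -1.65 with siRNA 6 and -0.48 with siRNA 8 and ALPG at -0.02 and 0.04, and 0 of 2 passed in limma.

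Surface colonocyte genes fell in 5 of 8 measured cases and rose in 1, with a median of -0.88. Among all genes 28.6% passed lower and 12.1% higher. TSPAN8 (14.1-fold), CDH17, the liver-intestine cadherin (5.20-fold), UGT2B17 (3.42-fold) and CEACAM1 (1.94-fold) were lower, as was CEACAM7 (1.75-fold). SLC26A2, a sulfate carrier, was 1.85-fold higher. KRT20, the keratin of differentiated colonocytes, stood at 0.55 with siRNA 6 and 0.27 with siRNA 8 (limma, adjusted p = 0.0538, and 0.0329 with centring). Lists of brush border and colonocyte genes were written with earlier results of these data known, so that their medians and counts describe the arrays and support nothing further.

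**Figure D4:**
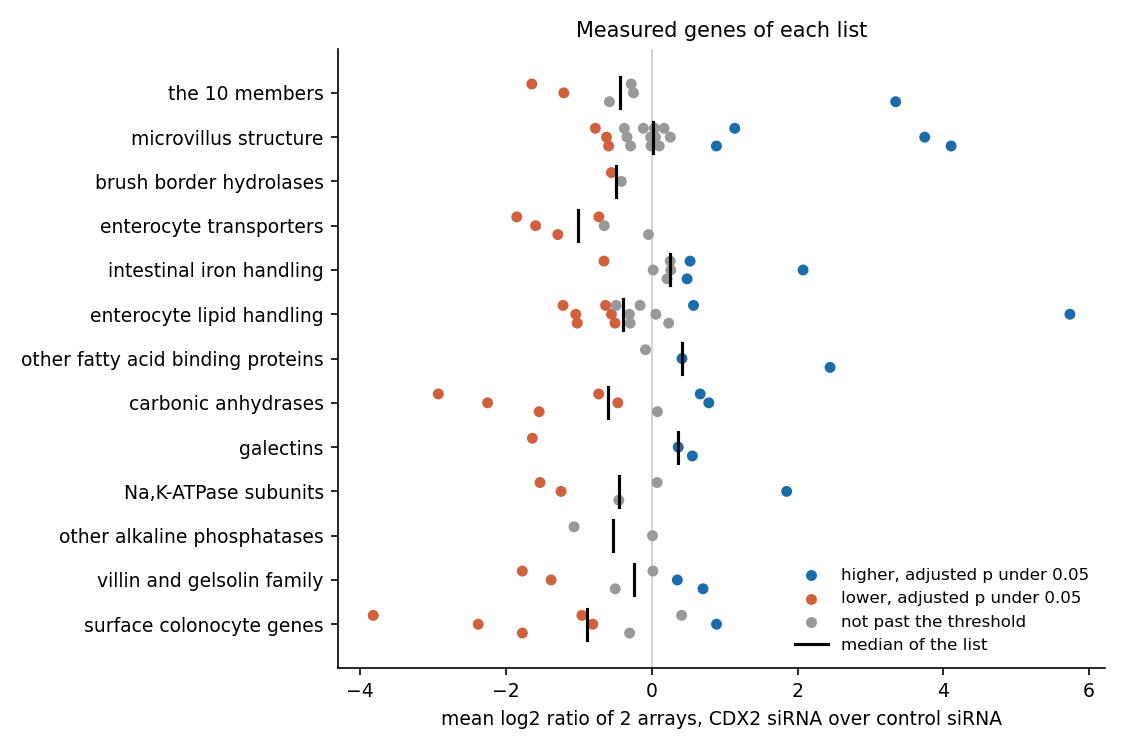
Mean log2 ratio of the 2 arrays (x axis) for every measured gene of each list (rows), coloured by the limma call, with a black bar at the median of the list. The lists of cell type markers are not shown. The transporters have a median of -1.01, and the 10 genes described here a median of -0.43.

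Ratios do not give levels, so for the labelled cell type only the markers that had a ratio could be listed. Of neuroendocrine markers 4 of 9 on the array had one, with ENO2 higher (1.78-fold) and CHGA (1.34-fold) and SCG3 (1.49-fold) lower, and SYP and INSM1 were at exactly 0. CHGB stood at -0.37 with siRNA 6 and 2.03 with siRNA 8. Of 8 fibroblast markers 4 had a ratio, and COL1A1 was 1.42-fold higher. Of 8 haematopoietic markers 4 had one, with CD79A higher (2.17-fold) and CD14 (2.09-fold), PTPRC (1.94-fold) and CD3E (1.89-fold) lower. CD34, CD68, LYZ, DCN and PDGFRA were at exactly 0 on both arrays. With each array centred, CHGA and PTPRC did not pass (limma, adjusted p = 0.0848 and 0.0645), nor did PTPRC with quantile normalization (0.0688). Markers of all 3 kinds had ratios to a like degree, so these counts could not tell the labelled cell type from the others. Of all 18334 named genes, 12842 had a ratio on both arrays, and of those 12.1% passed higher and 28.6% lower. The part of other cell types in the values of the 10 genes was not tested.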

How the data were processed

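Total RNA of COLO320 cells was measured on 2 two-colour arrays. The authors deposited log10 ratios of Cy5 over Cy3, made with Agilent Feature Extraction 9.5.3 per the submitters' processing notes. The base of 10 is that tool's convention. Neither it nor the background and dye correction is given in the sources used here. The direction follows the dyes named in the labels. Ratios were converted to log2 without further normalization, and exact zeros were left out.

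Symbols came from the platform annotation, in which 31332 of 45015 features have 1 gene, 93 have several and 13590 have none; 31291 gene identifiers matched RefSeq and 0 symbols changed. Features with a ratio on both arrays were averaged per gene (12842 genes). Limma 3.58.1 in R 4.3.3 fitted an intercept to the 2 arrays (1 residual degree of freedom, prior 2.87) and tested it against 0, with Benjamini-Hochberg adjustment over all genes and a threshold of 0.05. The fit was tested on simulated data. Nothing in the labels says that the siRNAs were transfected independently. The p-values therefore reflect only how far the 2 arrays differed, moderated by the spread over all genes, and the number of arrays limits the precision.

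The 10 genes, the gene lists and the tests were chosen with earlier results of these data known. Besides CDX2 and the 10 genes, the rule names up to 4 genes per list that passed, by the smaller absolute value of the arrays. It also names the genes behind a count of 5 or fewer that passed. DPP4, LCT, MGAM, TMPRSS15, SLC40A1, TFRC, FABP2, ATP1B3, KRT20, CHGB and the markers at 0 were named after their values were seen. APOA4, NPC1L1, PLB1, ALPP and ALPG were likewise named outside that rule. Genes alike in pattern were not sought, since 2 arrays give none. Alternatives covered centring, quantile normalization, exact zeros, single features, the median feature, a robust prior, the log base, a 1.5-fold rule and each array alone.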

Additional observations from a re-analysis of the deposited data

How the results depend on the processing

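The call for ANPEP, HEPH and ATP1B1 held under centring, quantile normalization, the median of features, robust eBayes, and features tested on their own. In that last setting 4 of 7 features passed, 2 of them of ATP1B1, against 7305 of all 21068 features tested. For an even number of features, the median setting took the lower of the middle 2 on each array. For ATP1B1 and CDX2 that is the lower feature, so the setting leans towards lower ratios. With it 75.8% of all calls were lower, against 70.2% in the main fit. Under the 1.5-fold rule the count of these genes was also 3, while over all genes it was 3368 in place of 5225. Where exact zeros stayed in as values, 0 of 18334 genes and 0 of the 10 genes described here passed in limma, with 5218 and 2 at an unadjusted p under 0.05. That fit adds genes without spread to the variance prior. For the 6 measured genes and CDX2, 44 tests under alternatives kept the direction and side of the threshold in 40 cases. The call was lost in 4, all 4 with zeros kept, and the 14 values from 1 array alone kept their direction. For the 5 genes with 1 measured feature, the median and single-feature settings reuse the same ratio, and robust eBayes changes no ratio. Their direction could not change there. Both arrays shared a sign in every gene counted, so these counts give no independent support. With zeros kept CDX2 stood at -1.42 as before, with a limma adjusted p of 0.0676, against at most 0.00312 under its other alternatives. With the median of features, CAPG (log2 0.35 in both fits, adjusted p = 0.0613), COL1A1 (0.49 against 0.51, 0.0513), CA8 (-0.46 in both fits, 0.0519) and LGALS8 did not pass, and HFE, FABP3 and CA5B stood at -0.20, -1.16 and -0.42. Read as log2, which cannot change a p-value here, the deposited values give ANPEP 1.01, HEPH -0.50 and ATP1B1 -0.36. Leaving out 1 array leaves no test, so no count was made that way. No paired analysis was possible because the 2 arrays form 1 group. Signal over background is unknown, since no intensities were used here.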

Other observations

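Some features had a ratio on 1 array and exactly 0 on the other, as that of ALPI did. Of all features with 1 gene, 860 were of this kind, with a median log2 ratio of -0.18, and 24.5% of them lay past 1.5-fold. In the lists, 21 features were of this kind, of which 19 lay below 0 and 4 past 1.5-fold. Some of the 19 lay close to 0, and the share of the 860 below 0 was not counted. RBP2, the retinol binding protein of enterocytes, was 12.9-fold higher with siRNA 8 and at exactly 0 with siRNA 6. One feature of MSN, which encodes moesin, was 10.3-fold higher with siRNA 6 and at 0 with siRNA 8, while another feature of MSN with a ratio on both arrays had a mean of 0.05. ESPN, espin, an actin bundler of microvilli, stood at 41.9% of control with siRNA 8, its siRNA 6 value being 0. CD177 stood at 58.6% of control with siRNA 6, its siRNA 8 value being 0.

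Over the 5 lists of microvillus structure, hydrolases, transporters, iron and lipid handling, 48 of 98 genes on the array were measured. Of these 9 rose, 15 fell and 24 did not pass, against 12.1% higher and 28.6% lower among all genes. Their median log2 ratio was -0.14, beside -0.13 for all genes.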
